A study of Homo sapiens with 6 samples.

Results

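The genes described here are 38 genes of glucose breakdown and of the response to low oxygen, named by symbol: 22 that encode glycolytic enzymes, glucose and lactate transporters or regulators of glycolysis, and 16 other hypoxia-inducible genes, HIF subunits and oxygen sensors. Members were all probe sets whose platform annotation gave a single symbol equal to one of the 38. There were 80 such probe sets, for 36 of the 38 genes, out of 19775 genes with a single-symbol probe set in the whole series. SLC16A3 and CA9 had no such probe set and were not analysed here. Of the 36 genes, 33 passed the filter on low signals and were tested, with 64 probe sets; SLC2A3, ANGPTL4 and EGLN3 did not, and 3 further probe sets were array controls for GAPDH.

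Expression was measured in 3 human cell lines on 6 Affymetrix arrays, 2 per line. PC-3, the parental reference, is an established line of prostate cancer cells that had spread to bone. TEM4-18 and TEM2-5 were each obtained from PC-3 cells recovered after crossing a sheet of human microvascular endothelial cells from lung, and the 2 isolations were independent experiments. All lines grew in DMEM/F12 with FBS; the oxygen level of the cultures is not given in the sources used here. Each TEM line is 1 isolate, and no label states whether its 2 arrays were hybridised with RNA of different cultures, so the p-values reflect array-to-array spread alone, possibly technical.

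Hypoxia-inducible factors (HIFs) are transcription factors made of an oxygen-regulated alpha subunit and a constant partner. In the presence of oxygen, prolyl hydroxylases of the EGLN family mark alpha subunits, among them HIF1A and EPAS1 (HIF-2 alpha), for destruction. At low oxygen the subunits persist and bind a short core sequence near their target genes. Known targets include most enzymes of glycolysis, the glucose transporter SLC2A1 and genes of pH control, mitophagy, collagen modification and vessel tone. The HIF proteins are regulated mainly by their stability, which arrays of RNA do not measure.

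Signals are MAS5 intensities in linear array units, and fold changes are differences of log2(signal + 51.8), a scale on which faint genes appear to change less than they do. The arrays were similar in RNA quality: the ratio of 3' to 5' control probe sets of GAPDH was 0.923 to 0.986, with each TEM line overlapping PC-3. KRT8 and KRT18, keratins of epithelial cells, were read on every array, at 6062 to 60110.5. All 4 epithelial markers passed the filter, which is on the mean over the 6 arrays. Their summed signal was 138405 to 142552 on the PC-3 arrays and 36805 to 38951 on the TEM4-18 arrays. On the TEM2-5 arrays it was 51228 to 54093. CDH1 read 14396 and 15147 in PC-3 and 2520 and 2479 in TEM2-5. In TEM4-18 it read 25.7 and 57.8, below the filter threshold of 174. The log2 fold changes in TEM4-18 and TEM2-5 were -4.50 and -2.03 for EPCAM. They were -1.78 and -1.32 for KRT8, and -1.02 and -0.97 for KRT18. For prostate luminal markers, 2 of 3 above the filter, the summed signal was 1379 to 2253, 3461 to 3917 and 3248 to 3361 on the arrays of these 3 lines. Of these markers, TMPRSS2 rose by log2 1.71 in TEM4-18 and 1.51 in TEM2-5. KLK3 was called in neither line (0.23 and 0.07), and KLK2 was below the filter. Among 10 endothelial markers, 4 passed the filter, and their list's summed signal was 2290 to 2523 on the PC-3 arrays, 3634 to 5044 on the TEM4-18 arrays and 3971 to 4101 on the TEM2-5 arrays. Of these 4, KDR, the main VEGF receptor, was higher in both lines (log2 2.40 and 2.29), as was ROBO4, a guidance receptor (0.73 and 0.78), ESAM, an adhesion molecule, was higher in TEM4-18 (1.40; 0.71 in TEM2-5, limma adjusted p = 0.0526), and PECAM1 was not called. CDH5, the cadherin of endothelial junctions, stayed below the filter at 23.9 to 201. For 7 fibroblast markers, 6 of which passed the filter, the sums were 9169 to 10814, 20116 to 23332 and 22034 to 25409, with collagen gene COL1A1 the main contributor, at log2 fold changes of 1.44 and 1.39. The list median in TEM4-18 was -0.74: LUM, a matrix proteoglycan, was at least 3.45-fold lower there and PDGFRA, a growth factor receptor, fell by 0.77, while in TEM2-5 PDGFRA rose by 1.32. For 4 leukocyte markers, 1 of which passed, the sums lay between 377 and 755 on the 6 arrays. The part of such signals in the results below was not tested.

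In TEM4-18, 12 of the 33 tested members were lower than in PC-3 and 1 was higher (limma, adjusted p under 0.05 over all tested probe sets), where 16.0% of the 13621 tested genes were lower and 13.3% higher. In TEM2-5, 8 members were lower and 0 higher, against 10.1% and 8.98% of genes (29.3% of genes were called either way in TEM4-18 and 19.0% in TEM2-5); 1 member had an unadjusted p under 0.05 in the higher direction. The falls lay mostly outside the glycolytic enzymes. Among enzymes, 3 of 16 were lower in TEM4-18 and 1 of 16 in TEM2-5, while among the other hypoxia-inducible genes 6 of 10 and 4 of 10 were lower. The members were chosen with earlier results of these data known, so these counts describe the list and are no test of it. The median log2 fold change was -0.13 and -0.10 for the enzymes, and -0.55 and -0.33 for the other hypoxia-inducible genes, beside -0.038 and -0.024 over all tested genes. For 19 members every TEM4-18 array lay below every PC-3 array and for 4 above, where 34.8% and 28.3% of all tested genes did so; for TEM2-5 it was 16 and 2 members, against 32.2% and 27.7%. Without the mean trend in the variance model the calls of HK2, ALDOA, BNIP3, ANKRD37 and BHLHE40 in TEM4-18 and of DDIT4, BNIP3 and EGLN1 in TEM2-5 were lost, and without the filter those of ALDOA, ANKRD37 and BHLHE40 in TEM4-18 and of DDIT4 in TEM2-5. Both comparisons use the same PC-3 arrays. Arrays read pooled cells, so a lower level in every cell and a smaller share of cells with the RNA cannot be told apart.

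**Figure D1:**
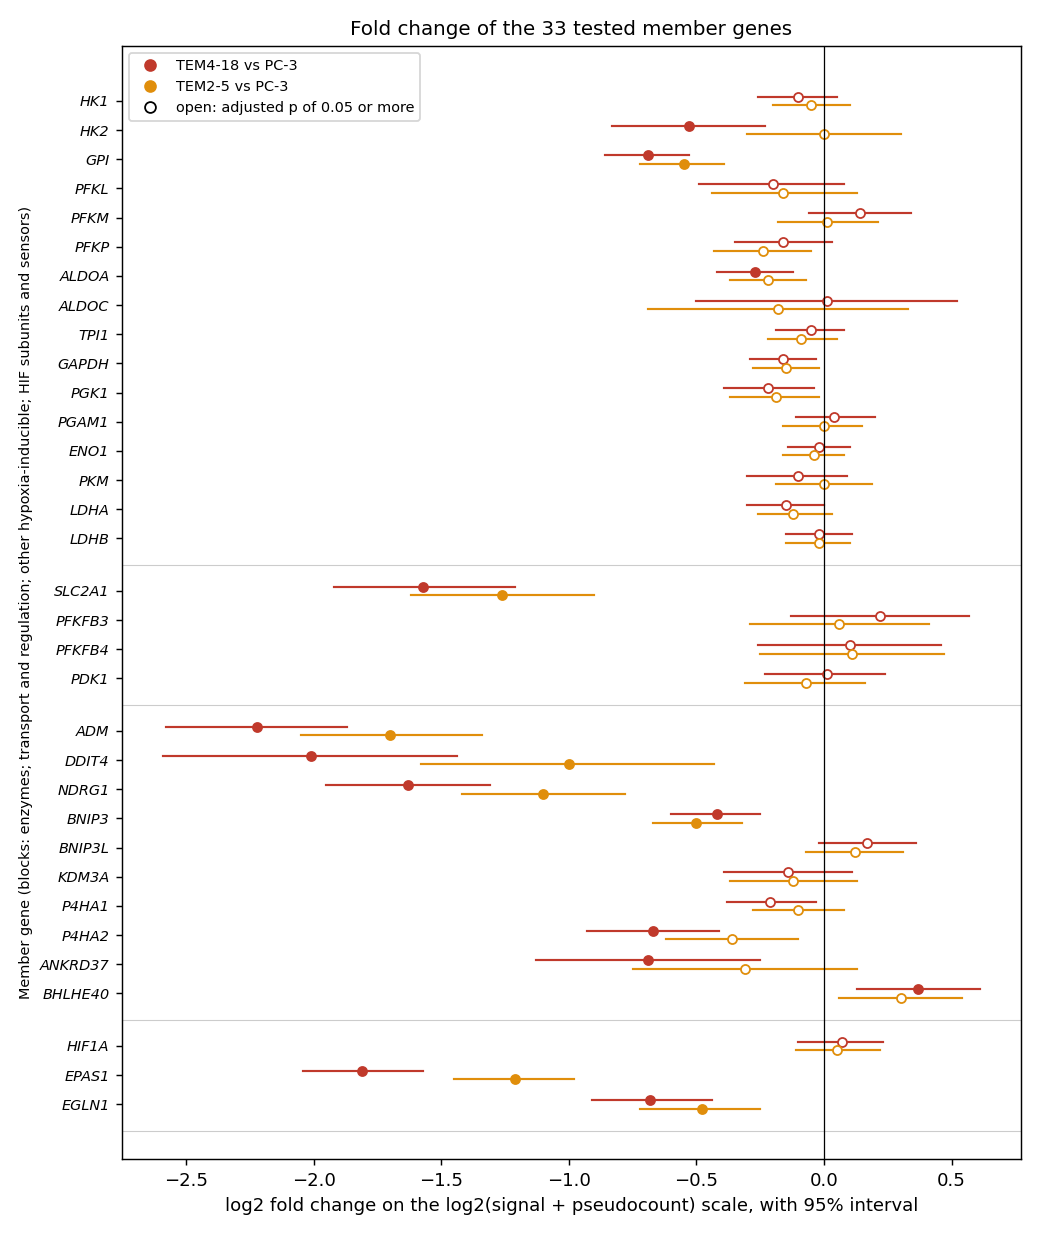
Log2 fold changes of the 33 tested members (points) with 95% intervals (bars) for TEM4-18 (red) and TEM2-5 (orange) against PC-3, in blocks for enzymes, transport and regulation, other hypoxia-inducible genes, and HIF subunits and sensors. Filled points passed the threshold; the enzymes lie between -0.69 and 0.14, whereas ADM, DDIT4, EPAS1, NDRG1 and SLC2A1 reach -1.57 to -2.22 in TEM4-18.

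The RNA of HIF1A and EPAS1, the 2 HIF alpha subunits among the members, was read on every array. HIF1A read 50964 and 44687 on the PC-3 arrays, 51410.0 and 48523 on the TEM4-18 arrays, and 51339 and 47713 on the TEM2-5 arrays. The 3 lines overlapped, and the log2 fold changes of HIF1A were 0.07 ± 0.07 in TEM4-18 (SE, limma adjusted p = 0.579; 95% interval -0.10 to 0.23) and 0.05 ± 0.07 in TEM2-5 (limma adjusted p = 0.697; interval -0.11 to 0.22).

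EPAS1 read 9694 and 10137 in PC-3, 2588 and 3022 in TEM4-18, and 4391 and 4099 in TEM2-5. No array of one line overlapped another line, and the order was PC-3, then TEM2-5, then TEM4-18. EPAS1 fell by 1.81 ± 0.11 on the log2 scale in TEM4-18, a 3.50-fold drop (SE, limma adjusted p = 1.01e-06), and by 1.21 ± 0.11 in TEM2-5, a 2.32-fold drop (limma adjusted p = 4.7e-05). It was the one member whose brightest probe set also differed between the TEM lines: TEM4-18 was lower than TEM2-5 by a log2 difference of -0.59 ± 0.11 (limma adjusted p = 0.0192), where 2.26% of tested genes were lower in TEM4-18. That call was lost without TEM4-18 replicate 1 (-0.48, adjusted p = 0.0997 by limma), without TEM2-5 replicate 1 (-0.54, adjusted p = 0.171) and without TEM2-5 replicate 2 (-0.64, adjusted p = 0.0853), with each array centred on its median (-0.53, adjusted p = 0.163) and without the variance trend (-0.59, adjusted p = 0.232). A second EPAS1 probe set, of lower signal, fell by 1.62 in TEM4-18 and had a log2 fold change of -0.81 in TEM2-5 (limma adjusted p = 0.0907).

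Among the oxygen sensors, EGLN1, the main prolyl hydroxylase of HIF alpha subunits and itself a HIF target, read 7026 and 6902 in PC-3, 4783 and 3938 in TEM4-18, and 5001 and 4930.1 in TEM2-5. Both TEM lines lay below both PC-3 arrays. EGLN1 fell by 0.68 ± 0.11 in TEM4-18 (limma adjusted p = 0.000997) and by 0.48 ± 0.11 in TEM2-5 (limma adjusted p = 0.0118), and all 3 of its tested probe sets were lower in each line. The TEM2-5 call was lost without PC-3 replicate 1 (-0.47, adjusted p = 0.0539), TEM2-5 replicate 1 (-0.49, adjusted p = 0.0589) or TEM2-5 replicate 2 (-0.47, adjusted p = 0.0713). EGLN3, a related hydroxylase, stayed below the filter, and its brighter probe set read 228 and 183 in PC-3, 126 and 111 in TEM4-18, and 59.1 and 70.7 in TEM2-5.

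Adrenomedullin, a vasodilator peptide encoded by ADM and a classical hypoxia-inducible gene, had the largest fall among the members by brightest probe set. ADM read 3149 and 3972 in PC-3, 720.4 and 712 in TEM4-18, and 1146 and 974 in TEM2-5. The 3 lines did not overlap. ADM fell by 2.22 ± 0.16 in TEM4-18, a 4.67-fold drop (SE, limma adjusted p = 4.3e-06), with a log2 fold change of -1.70 ± 0.16 in TEM2-5, a 3.24-fold drop (limma adjusted p = 7.53e-05). The difference between the TEM lines, -0.53 with a 95% interval of -0.88 to -0.18, did not pass the threshold (limma adjusted p = 0.165).

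DDIT4 encodes REDD1, a stress-induced inhibitor of mTORC1 signalling. Its signals were 1695 and 1111 in PC-3, 369.8 and 243 in TEM4-18, and 748 and 579 in TEM2-5, again with no overlap between lines. DDIT4 fell by 2.01 ± 0.26 in TEM4-18 (SE, limma adjusted p = 0.000265), a 4.04-fold drop. In TEM2-5 it fell by 1.00 ± 0.26 (limma adjusted p = 0.0251). This second call rested on single arrays: it was lost without PC-3 replicate 1 (-0.71, adjusted p = 0.173), without TEM2-5 replicate 1 (-1.18, adjusted p = 0.0561) and without TEM2-5 replicate 2 (-0.83, adjusted p = 0.159).

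NDRG1, a gene induced by hypoxia and by differentiation, read 16652 and 13912 in PC-3, 5578 and 4269.9 in TEM4-18, and 7837 and 6375 in TEM2-5. It fell by 1.63 ± 0.14 in TEM4-18 (limma adjusted p = 1.83e-05) and by 1.10 ± 0.14 in TEM2-5 (limma adjusted p = 0.000584), 3.10-fold and 2.15-fold. Each line kept its own range, with TEM4-18 lowest.

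**Figure D2:**
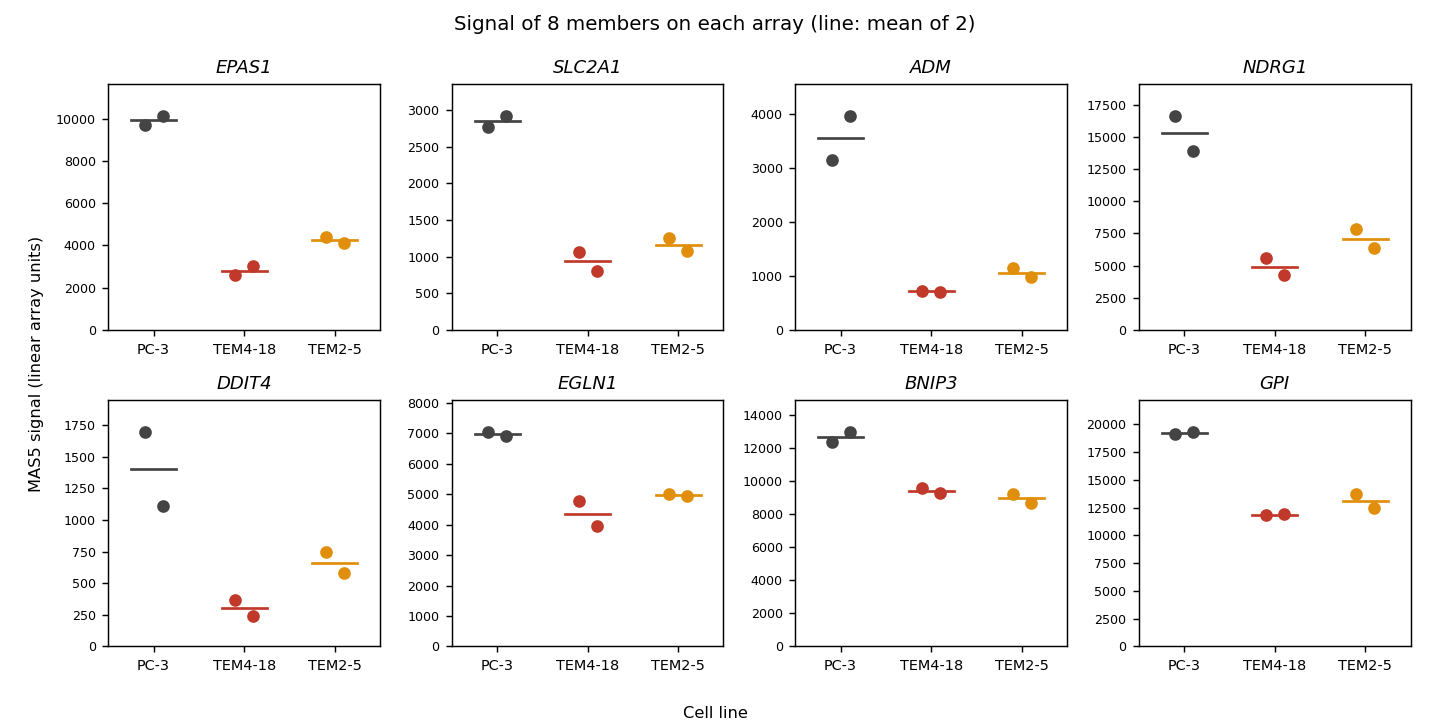
MAS5 signal (linear array units, axes from 0) of 8 members on each of the 2 arrays of PC-3, TEM4-18 and TEM2-5; points are arrays and lines are the means of 2. For EPAS1 and NDRG1, as for ADM and DDIT4, TEM2-5 lies between PC-3 and TEM4-18, whereas for BNIP3 the means of TEM4-18 (9419) and TEM2-5 (8937) are in the opposite order.

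Smaller changes were seen in genes of mitophagy and collagen modification. BNIP3, a mitochondrial protein that promotes mitophagy, read 12332.5 and 12935 in PC-3, 9599 and 9239.98 in TEM4-18, and 9193 and 8681 in TEM2-5. It fell by 0.42 ± 0.08 in TEM4-18 (limma adjusted p = 0.00283) and by 0.50 ± 0.08 in TEM2-5 (limma adjusted p = 0.00196), with the same calls on its other probe set. The TEM4-18 call was lost with each array centred on its median (-0.34, adjusted p = 0.0725). Its relative BNIP3L gave no such picture. The brighter BNIP3L probe set had log2 fold changes of 0.17 ± 0.08 in TEM4-18 (limma adjusted p = 0.178) and 0.12 ± 0.08 in TEM2-5 (limma adjusted p = 0.384), while the other one was at -0.28 in TEM4-18 (limma adjusted p = 0.0538) and fell by 0.44 in TEM2-5 (limma adjusted p = 0.0116).

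P4HA1 and P4HA2 encode catalytic subunits of the collagen prolyl hydroxylase of the endoplasmic reticulum. P4HA2 read 4040.3 and 4636 in PC-3, 2801 and 2608 in TEM4-18, and 3568 and 3161 in TEM2-5. It fell by 0.67 ± 0.12 in TEM4-18 (limma adjusted p = 0.00184) and was at -0.36 ± 0.12 in TEM2-5 (limma adjusted p = 0.062), although neither TEM2-5 array reached a PC-3 value. P4HA1 did not pass in either line, at -0.21 ± 0.08 (limma adjusted p = 0.0885) and -0.10 ± 0.08 (limma adjusted p = 0.449). KDM3A, a histone demethylase induced by hypoxia, was at -0.14 ± 0.11 and -0.12 ± 0.11 (limma adjusted p = 0.424 and 0.528).

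ANKRD37, a small ankyrin-repeat protein induced by HIF, read 1794 and 1220.3 in PC-3, 969 and 826 in TEM4-18, and 1082 and 1299 in TEM2-5. It fell by 0.69 ± 0.20 in TEM4-18 (limma adjusted p = 0.0261), a call lost without PC-3 replicate 1 (-0.43, adjusted p = 0.19) and without TEM4-18 replicate 2 (-0.59, adjusted p = 0.134). BHLHE40, a transcriptional repressor also known as DEC1, was the single member called higher: it read 12005 and 9899.7 in PC-3, 15128 and 13154 in TEM4-18, and 14178 and 12790.4 in TEM2-5. BHLHE40 rose by a log2 fold change of 0.37 ± 0.11 in TEM4-18 (limma adjusted p = 0.0287) and was at 0.30 ± 0.11 in TEM2-5 (limma adjusted p = 0.0863). The rise was not called without PC-3 replicate 2 (0.23, adjusted p = 0.194), without TEM4-18 replicate 1 (0.27, adjusted p = 0.185), or with its probe sets averaged (0.39, adjusted p = 0.0739). ANGPTL4, a secreted inhibitor of lipoprotein lipase, was below the filter, with 187 and 272 in PC-3, 88.3 and 57.8 in TEM4-18, and 204 and 180.3 in TEM2-5 on its brighter probe set.

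Glucose enters these cells through transporters of the SLC2A family. SLC2A1, which encodes the basal transporter GLUT1 and is a HIF target, read 2771 and 2923 in PC-3, 1061 and 809.5 in TEM4-18, and 1249.9 and 1076 in TEM2-5. Every TEM array lay below every PC-3 array. SLC2A1 fell by 1.57 ± 0.16 in TEM4-18, 2.96-fold (SE, limma adjusted p = 5.48e-05), and by 1.26 ± 0.16 in TEM2-5, 2.39-fold (limma adjusted p = 0.000528). The second SLC2A1 probe set was faint, at 47.4 to 229.9 over the 6 arrays, and was called in neither line. Averaging both reduced the TEM4-18 value to -0.82, which was still called. SLC2A3, the high-affinity transporter GLUT3, was below the filter, and none of its 3 probe sets exceeded 164 on any array.

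Most glycolytic enzymes read within a narrow range in the 3 lines. HK1, the hexokinase of most tissues, read 17121 and 17229.7 in PC-3, 16159 and 15780.2 in TEM4-18, and 16972 and 16190.5 in TEM2-5, and its log2 fold changes were -0.10 ± 0.07 and -0.05 ± 0.07 (limma adjusted p = 0.315 and 0.683). HK2, the inducible hexokinase, read 6316 and 4974 in PC-3, 3925 and 3791 in TEM4-18, and 6214 and 5034 in TEM2-5. HK2 thus lay lower on the TEM4-18 arrays, while TEM2-5 lay within the PC-3 range. It fell by 0.53 ± 0.13 in TEM4-18 (limma adjusted p = 0.0145) and was at 0.00 ± 0.13 in TEM2-5 (limma adjusted p = 0.993; 95% interval -0.30 to 0.30), but the difference between the TEM lines did not pass (-0.53, limma adjusted p = 0.0915). The TEM4-18 call was lost without PC-3 replicate 1 (-0.36, adjusted p = 0.111), without TEM4-18 replicate 2 (-0.51, adjusted p = 0.0679) and when the 3 HK2 probe sets were averaged (-0.18, adjusted p = 0.394).

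GPI, which converts glucose 6-phosphate to fructose 6-phosphate, was the enzyme with the clearest fall. Its signals were 19170.2 and 19290.7 in PC-3, 11806 and 11934 in TEM4-18, and 13695 and 12492 in TEM2-5. GPI fell by 0.69 ± 0.08 in TEM4-18 (limma adjusted p = 7.69e-05) and by 0.55 ± 0.08 in TEM2-5 (limma adjusted p = 0.000718), 1.62-fold and 1.47-fold. It rested on a single probe set.

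ALDOA, the aldolase that splits fructose bisphosphate, read 47081 and 44745 in PC-3, 38735 and 37169 in TEM4-18, and 41511 and 37357 in TEM2-5. It fell by 0.27 ± 0.07 in TEM4-18 (limma adjusted p = 0.0132) and was at -0.22 ± 0.07 in TEM2-5 (limma adjusted p = 0.0508), and both TEM lines lay below both PC-3 arrays. The TEM4-18 call was lost without PC-3 replicate 1 (-0.24, adjusted p = 0.0789) and without TEM4-18 replicate 2 (-0.24, adjusted p = 0.0865), and with each array centred on its median (-0.20, adjusted p = 0.170). These values are from the brightest ALDOA probe set, which was uncalled in TEM2-5 in 12 of 16 alternative settings and lower in the others. Another ALDOA probe set, of similar signal, was called lower in both lines. It was at -0.34 in TEM4-18 (limma adjusted p = 0.00577) and -0.28 in TEM2-5 (limma adjusted p = 0.0245). A dimmer one was at -0.28 in TEM4-18 (limma adjusted p = 0.0422) and -0.15 in TEM2-5 (limma adjusted p = 0.307). ALDOC, the brain-type aldolase, was at 0.01 ± 0.23 in TEM4-18 and -0.18 ± 0.23 in TEM2-5.

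The 3 phosphofructokinase genes, which encode subunits of the committing step of glycolysis, did not pass in either line. Their log2 fold changes in TEM4-18 were -0.20 ± 0.13 for PFKL, 0.14 ± 0.09 for PFKM and -0.16 ± 0.09 for PFKP. In TEM2-5 they were -0.16 ± 0.13, 0.01 ± 0.09 and -0.24 ± 0.09, with limma adjusted p-values of 0.0820 to 0.943 over both lines. PFKFB3 and PFKFB4 make fructose 2,6-bisphosphate, the activator of that step, and their brightest probe sets did not pass either, at 0.22 ± 0.16 and 0.10 ± 0.16 in TEM4-18 and 0.06 ± 0.16 and 0.11 ± 0.16 in TEM2-5.

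From triose phosphate to lactate, no enzyme was called in either line on its brightest probe set; other PGK1 probe sets were called and are given further on. GAPDH, which oxidises glyceraldehyde 3-phosphate and is often used as a reference gene, read 74448 and 70486 in PC-3, 64683 and 65087 in TEM4-18, and 67699 and 62803 in TEM2-5. The TEM arrays all lay below the PC-3 arrays, by -0.16 ± 0.06 (limma adjusted p = 0.0719) and -0.15 ± 0.06 (limma adjusted p = 0.110) on the log2 scale. The 3 GAPDH control probe sets, which were not tested, ran from 77014 to 91517 in PC-3, 70865 to 79268 in TEM4-18 and 68324 to 82768 in TEM2-5.

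LDHA, the lactate dehydrogenase subunit induced by HIF, read 86762 and 77940.2 in PC-3, 75061 and 73133 in TEM4-18, and 79395 and 72450.4 in TEM2-5. Its log2 fold changes were -0.15 ± 0.07 (limma adjusted p = 0.132; 95% interval -0.30 to 0.00) and -0.12 ± 0.07 (limma adjusted p = 0.284; interval -0.26 to 0.03). LDHB, the heart-type subunit, read 49784 and 47989 in PC-3, 47103 and 49317 in TEM4-18, and 48090.0 and 48132 in TEM2-5, with overlapping lines and log2 fold changes of -0.02 ± 0.06 in each (limma adjusted p = 0.841 and 0.841). TPI1, PGAM1, ENO1 and PKM, which carry carbon from triose phosphate to pyruvate, were at -0.05, 0.04, -0.02 and -0.10 in TEM4-18 and at -0.09, 0.00, -0.04 and 0.00 in TEM2-5. PGK1, the first ATP-yielding enzyme, was at -0.22 ± 0.08 and -0.19 ± 0.08 (limma adjusted p = 0.0681 and 0.126), with the first called in 4 of 16 alternative settings and the second in 2. PDK1, the kinase that restrains pyruvate dehydrogenase, was at 0.01 ± 0.10 and -0.07 ± 0.10.

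By brightest probe set, 12 enzymes other than ALDOC were not called in TEM4-18, and their 95% intervals lay between -0.49 and 0.34. A 2-fold change thus lies outside the interval of each of these probe sets. For the corresponding 14 in TEM2-5 the bounds were -0.44 and 0.30. Some fainter probe sets had intervals that include a 2-fold change. In TEM4-18 they ran from 0.01 to 2.33 for PFKP, -0.02 to 1.05 for TPI1 and 0.36 to 1.22 for PGK1, of which only the PGK1 probe set was called. The number of enzymes below 0 varied with the scaling of the arrays, and the median over all tested genes varied too. As deposited, 13 of 16 enzymes lay below 0 in TEM4-18 and 15 of 16 in TEM2-5. Their medians were -0.13 and -0.10, beside -0.038 and -0.024 over all tested genes. After quantile normalization 10 and 10 lay below 0, with enzyme medians of -0.03 and -0.03, beside -0.019 and -0.018 over all tested genes. ENO1 was then called higher in TEM4-18 (0.13, limma adjusted p = 0.0296). With each array centred on its median, 10 and 12 lay below 0. The enzyme medians were then -0.05 and -0.09, beside 0.040 and -0.008 over all tested genes. The highest signals on the arrays were 101089 to 120468, and whether the brightest enzyme probe sets were near saturation was not tested.

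**Figure D3:**
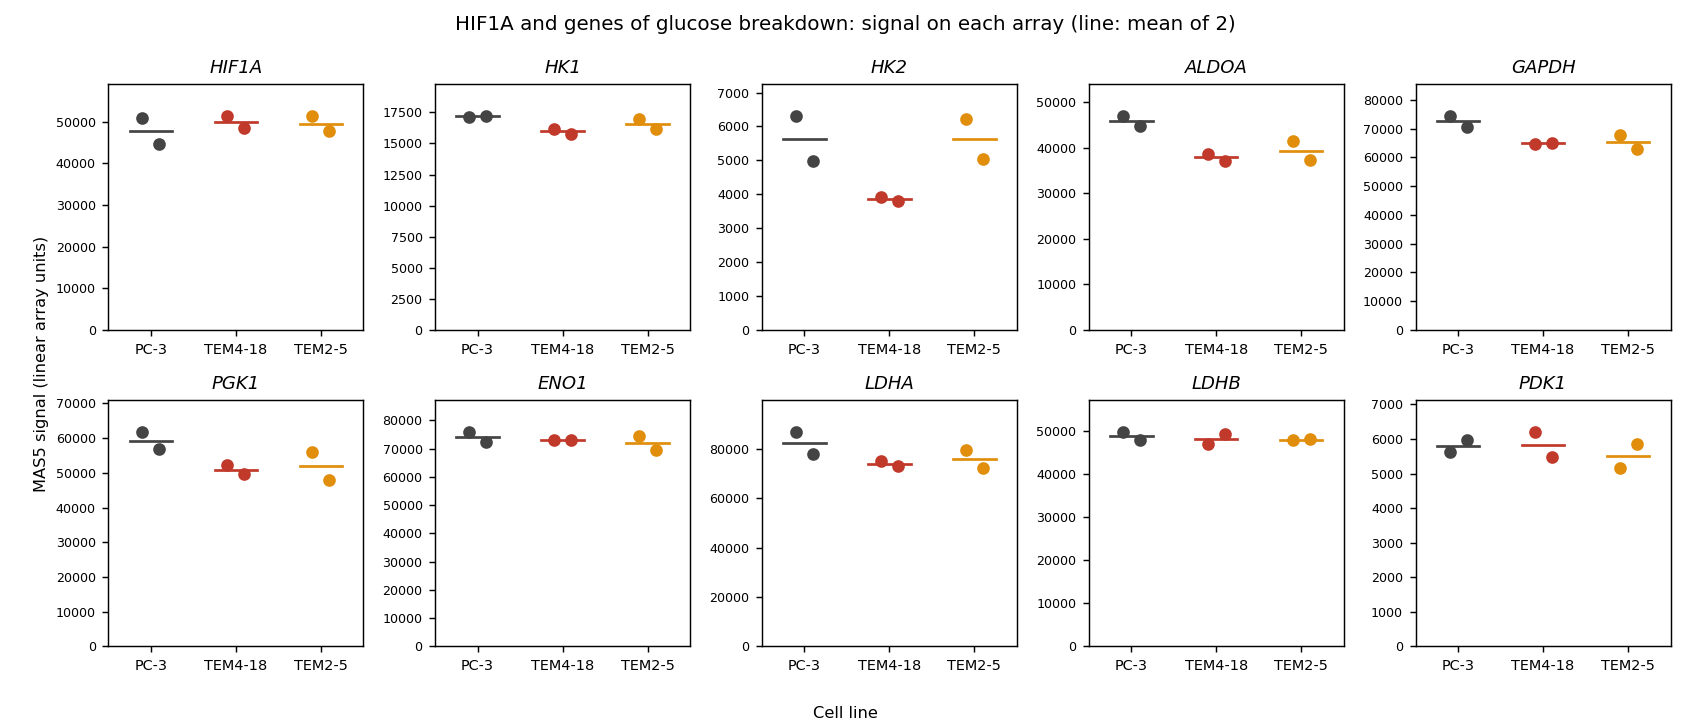
MAS5 signal (linear array units, axes from 0) of HIF1A and 9 genes of glucose breakdown on each of the 2 arrays per line; points are arrays and lines are the means of 2. HK2 is lowest on the TEM4-18 arrays (3925 and 3791), and GAPDH, PGK1, ALDOA and HK1 read lower on every TEM array than on any PC-3 array.

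Probe sets of the same gene did not always move together, and 19 members had several that were tested. PFKFB4 gave the widest range of fold changes in TEM4-18, and its second probe set is described although it was chosen after its values were seen. Its brighter probe set read 2293 and 1926 in PC-3, 1965 and 2604 in TEM4-18, and 2074 and 2485 in TEM2-5. The dimmer one read 575 and 689 in PC-3, 100.3 and 59.7 in TEM4-18, and 444 and 359 in TEM2-5. Both TEM4-18 arrays lay below 174, the threshold of the filter, so only a bound is given: against that threshold the signal was at least 3.62-fold lower than in PC-3 and at least 2.30-fold lower than in TEM2-5. The fitted values, which depend on the pseudocount, were -2.39 ± 0.32 in TEM4-18 (limma adjusted p = 0.000334), -0.59 ± 0.32 in TEM2-5 (limma adjusted p = 0.254) and -1.79 ± 0.32 between the TEM lines (limma adjusted p = 0.0197). The last call was lost without TEM4-18 replicate 2 (-1.57, adjusted p = 0.0846), TEM2-5 replicate 1 (-1.66, adjusted p = 0.200) or TEM2-5 replicate 2 (-1.93, adjusted p = 0.100).

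PGK1 split as well. A probe set of low signal, also chosen after its values were seen, read 555 and 577 in PC-3, 1058 and 975.05 in TEM4-18, and 822 and 1151 in TEM2-5, and rose by a log2 fold change of 0.79 in TEM4-18 (limma adjusted p = 0.0129) and 0.73 in TEM2-5 (limma adjusted p = 0.0281). By contrast, 3 other PGK1 probe sets fell in TEM4-18, by 0.20 to 0.26, and none of these passed in TEM2-5. Over all 64 tested member probe sets, 22 were lower and 2 higher in TEM4-18, where 12.8% and 12.8% of the 32768 tested probe sets were. In TEM2-5, 13 were lower and 1 higher, against 7.59% and 8.66%.

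**Figure D4:**
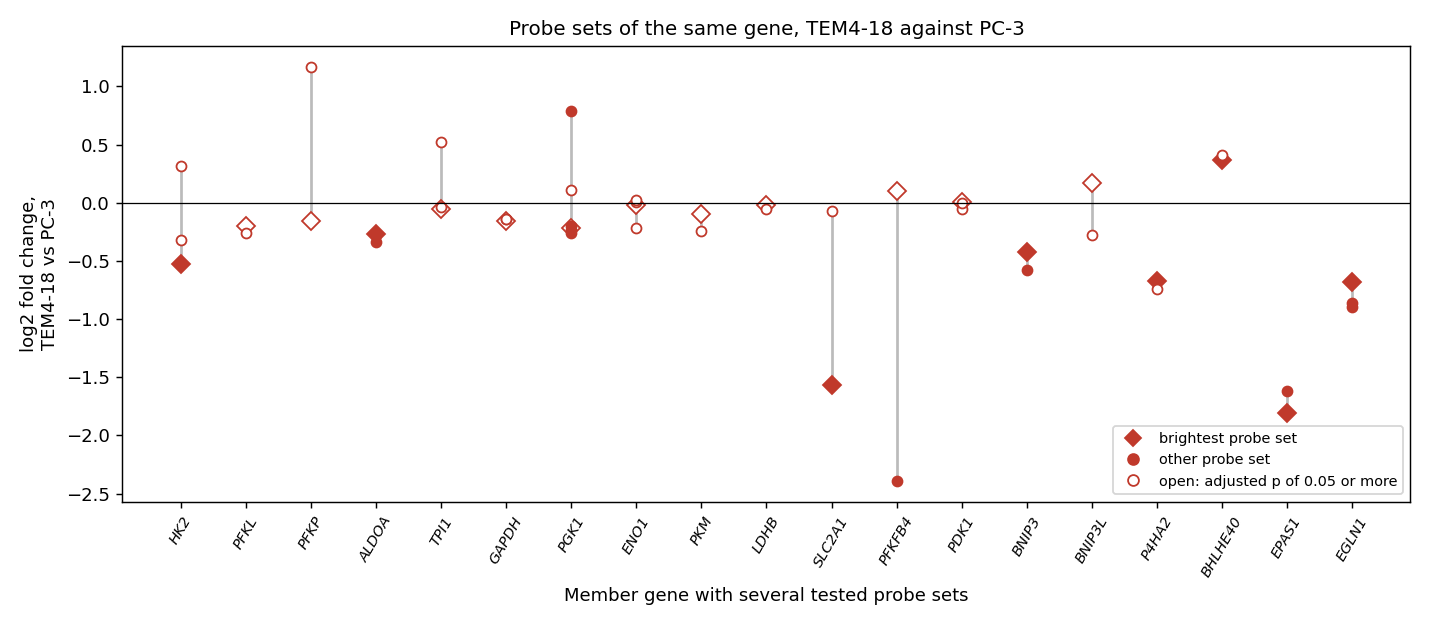
Log2 fold change in TEM4-18 against PC-3 of each tested probe set of the 19 members with several; diamonds mark the brightest probe set of a gene, circles the others, and filled marks passed the threshold. EGLN1, BNIP3, EPAS1 and ALDOA have all probe sets on one side and called, while the fitted values of PFKFB4 span -2.39 to 0.10 and PGK1 -0.26 to 0.79.

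Between the TEM lines, 20 of the 33 members had a log2 difference below 0 (TEM4-18 minus TEM2-5) and 13 above, with a median of -0.02 beside -0.011 over all tested genes; 9 of 16 enzymes lay below 0. Of the genes lower than PC-3 in both lines, SLC2A1 differed by -0.31 (95% interval -0.67 to 0.05), DDIT4 by -1.01 (-1.59 to -0.43, limma adjusted p = 0.0991) and NDRG1 by -0.53 (-0.85 to -0.21, limma adjusted p = 0.116). By brightest probe sets, 1 of 33 members was called, EPAS1, where 2.75% of tested genes were called and 0.492% were higher in TEM4-18. Over the 64 probe sets 2 were lower in TEM4-18, those of EPAS1 and PFKFB4 described above, where 1.43% of all tested probe sets were. The arrays of TEM4-18 lay wholly below those of TEM2-5 for 11 of the 33 members and wholly above for 2, where 23.9% and 20.4% of all tested genes did so.

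The HIF core sequence was then located in the promoters. RefSeq promoters (GRCh38.p14) were found for 35 of the 38 members, all but NDRG1, BNIP3L and SLC2A3, and the 250 bases before the gene start were searched on both strands for ACGTG and GCGTG, the cores of the hypoxia response element. ACGTG on both strands overlaps in the palindrome CACGTG, the E-box that other factors also bind. Of the 35 members, 23 held either core, against 43.1% of 27305 promoters of the same length; ACGTG was in 15 of them (18.7% of all) and GCGTG in 13 (31.9% of all). The palindrome was in 6 of them and in 6.5% of all promoters. Member promoters were richer in G and C, with a median of 68.8% against 58.0%, and both cores contain CG.

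Genes that fell and genes that did not both held the cores. Either core was in 9 of 11 promoters of members lower in TEM4-18 and in 12 of 20 of the tested members not lower there. ACGTG was in 7 of the 11 and 6 of the 20, and GCGTG in 5 of the 11 and 8 of the 20. These differences were not tested. By role, ACGTG was in 7 of 16 enzyme promoters and 7 of 10 promoters of the other hypoxia-inducible genes, and GCGTG in 5 and 4. Either core was in 9 of the 16 and 9 of the 10. These 10 are not the 10 tested genes: they include CA9 and ANGPTL4, which were not tested, and lack NDRG1 and BNIP3L. A match is a run of letters and not a bound site. The promoters below are of genes with different outcomes in TEM4-18. Of 4 genes that fell, 3 hold a core and SLC2A1 holds none in this window. LDHA and PGK1 are enzymes not called on their brightest probe set, while other PGK1 probe sets were called. BHLHE40 is the one member called higher. Whether a match bears on the level of a gene was not tested. Each sequence runs 5′ to 3′ along the gene's strand and ends at the base before the annotated start. Every match to a core, on either strand, is in capitals.
ADM (GRCh38.p14, chr11:10304823-10305072, plus strand): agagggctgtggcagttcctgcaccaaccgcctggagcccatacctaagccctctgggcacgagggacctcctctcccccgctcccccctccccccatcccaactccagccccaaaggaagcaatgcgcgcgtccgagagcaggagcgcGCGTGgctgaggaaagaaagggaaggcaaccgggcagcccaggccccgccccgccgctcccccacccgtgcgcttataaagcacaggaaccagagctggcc
DDIT4 (GRCh38.p14, chr10:72273674-72273923, plus strand): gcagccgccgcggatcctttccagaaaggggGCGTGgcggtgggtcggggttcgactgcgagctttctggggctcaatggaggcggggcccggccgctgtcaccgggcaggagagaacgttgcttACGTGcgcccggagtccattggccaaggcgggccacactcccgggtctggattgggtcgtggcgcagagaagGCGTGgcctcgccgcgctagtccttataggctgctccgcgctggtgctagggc
BNIP3 (GRCh38.p14, chr10:131981924-131982173, minus strand): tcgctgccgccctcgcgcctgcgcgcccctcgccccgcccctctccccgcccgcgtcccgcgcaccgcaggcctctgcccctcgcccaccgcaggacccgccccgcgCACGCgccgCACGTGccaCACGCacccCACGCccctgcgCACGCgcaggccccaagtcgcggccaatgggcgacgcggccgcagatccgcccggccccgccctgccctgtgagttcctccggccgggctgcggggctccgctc
SLC2A1 (GRCh38.p14, chr1:42958869-42959118, minus strand): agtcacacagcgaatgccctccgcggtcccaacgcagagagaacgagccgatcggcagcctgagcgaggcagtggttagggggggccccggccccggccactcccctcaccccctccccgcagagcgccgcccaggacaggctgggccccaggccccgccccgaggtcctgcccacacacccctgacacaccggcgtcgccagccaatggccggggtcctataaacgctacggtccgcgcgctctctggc
LDHA (GRCh38.p14, chr11:18394313-18394562, plus strand): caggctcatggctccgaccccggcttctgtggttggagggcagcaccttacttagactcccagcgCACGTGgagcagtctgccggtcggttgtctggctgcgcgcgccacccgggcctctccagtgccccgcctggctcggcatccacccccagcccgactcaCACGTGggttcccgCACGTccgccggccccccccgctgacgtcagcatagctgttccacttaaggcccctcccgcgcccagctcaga
PGK1 (GRCh38.p14, chrX:78103998-78104247, plus strand): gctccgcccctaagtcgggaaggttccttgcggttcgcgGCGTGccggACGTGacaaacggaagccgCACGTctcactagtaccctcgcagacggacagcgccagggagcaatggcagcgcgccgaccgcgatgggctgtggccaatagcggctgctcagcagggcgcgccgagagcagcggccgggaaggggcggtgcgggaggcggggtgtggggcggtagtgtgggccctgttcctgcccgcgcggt
BHLHE40 (GRCh38.p14, chr3:4979187-4979436, plus strand): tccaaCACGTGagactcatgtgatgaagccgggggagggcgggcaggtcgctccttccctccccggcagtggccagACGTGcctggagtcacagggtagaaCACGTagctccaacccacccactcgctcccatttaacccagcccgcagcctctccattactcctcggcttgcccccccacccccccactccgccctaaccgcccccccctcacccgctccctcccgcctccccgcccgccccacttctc

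ADM holds 1 match (GCGTG) and DDIT4 holds 3, 1 ACGTG and 2 GCGTG. BNIP3 holds 6, close together, of which 2 form 1 CACGTG palindrome, and the gene fell by 0.42 in TEM4-18. LDHA holds 5 matches, of which 4 form 2 CACGTG palindromes, and PGK1 holds 3; neither gene was called on its brightest probe set. BHLHE40 holds 4, all ACGTG, of which 2 form 1 CACGTG palindrome.

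The wider pathway, from lists of genes that are not members, was read from the same fit. These lists too were chosen with earlier results of these data known, so their counts are descriptive. Of 32 tested genes of the wider hypoxia response, 11 were lower and 4 higher in TEM4-18, and 6 lower and 2 higher in TEM2-5, with medians of -0.24 and -0.09. Over all tested genes 16.0% were lower and 13.3% higher in TEM4-18, and 10.1% and 8.98% in TEM2-5, so the count higher was near or below the background. STC2, a secreted glycoprotein induced by stress, had mean signals of 2567 (PC-3), 97.9 (TEM4-18) and 839 (TEM2-5). Its TEM4-18 arrays lay below the filter threshold of 174, and against that threshold STC2 was at least 14.7-fold lower than in PC-3 and at least 4.83-fold lower than in TEM2-5. The fitted log2 fold changes, of which the first depends on the pseudocount, were -4.18 ± 0.25 and -1.55 ± 0.25 (limma adjusted p = 1.32e-06 and 0.00226). The fitted difference of STC2 between TEM4-18 and TEM2-5, which also depends on the pseudocount, was called too (-2.62 ± 0.25, limma adjusted p = 0.000369). PLOD2, a collagen lysyl hydroxylase, went from 17288 to 5503 and 8795, falling by 1.64 ± 0.11 and 0.98 ± 0.11, and it too was lower in TEM4-18 than in TEM2-5 (-0.67 ± 0.11, limma adjusted p = 0.0146). TXNIP, a glucose-responsive inhibitor of thioredoxin and of glucose uptake, fell by 1.97 ± 0.21 and 1.14 ± 0.21. AK4, a mitochondrial adenylate kinase, fell by 1.14 ± 0.22 in TEM4-18 and was at -0.40 ± 0.22 in TEM2-5 (limma adjusted p = 0.260). LOXL2, an enzyme that crosslinks collagen, rose from 9055 to 18891 and 18761, by log2 fold changes of 1.06 ± 0.08 and 1.05 ± 0.08.

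Of 24 other tested genes of glucose metabolism, 6 were lower and 1 higher in TEM4-18 and 4 lower in TEM2-5, with medians of -0.20 and -0.15. The shares called in either direction, 29.2% and 16.7%, were near the 29.3% and 19.0% of all tested genes. By direction, 16.0% of all tested genes were lower and 13.3% higher in TEM4-18, and 10.1% and 8.98% in TEM2-5, whereas the calls in this list were mostly lower. PFKFB2, a further isoenzyme that sets fructose 2,6-bisphosphate, fell from 2949 to 1333 and 1707, by 1.11 ± 0.12 and 0.77 ± 0.12. TIGAR, a phosphatase with the opposite action on that metabolite, fell by 0.74 ± 0.11 and 0.66 ± 0.11, and PDP1, the phosphatase that activates pyruvate dehydrogenase, by 0.74 ± 0.09 and 0.48 ± 0.09. TALDO1, of the pentose phosphate pathway, fell by 0.30 ± 0.07 and 0.29 ± 0.07. ENO2, the neuronal enolase, rose by a log2 fold change of 0.52 ± 0.11 in TEM4-18 and was at 0.29 ± 0.11 in TEM2-5 (limma adjusted p = 0.0954).

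Of 21 tested genes of pyruvate dehydrogenase and the tricarboxylic acid cycle, 8 were lower and 1 higher in TEM4-18 and 5 lower and 1 higher in TEM2-5, with medians of -0.17 and -0.20. The shares called were 42.9% and 28.6%, beside 29.3% and 19.0% of all tested genes (16.0% and 10.1% lower, 13.3% and 8.98% higher). DLST, a subunit of the 2-oxoglutarate dehydrogenase complex, fell from 5515 to 1614 and 2458, by 1.74 ± 0.15 and 1.16 ± 0.15 (limma adjusted p = 1.32e-05 and 0.000467). OGDH, of the same complex, fell by 0.58 ± 0.11 in TEM4-18 and was at -0.30 ± 0.11 in TEM2-5 (limma adjusted p = 0.105). PCK2, the mitochondrial enzyme that makes phosphoenolpyruvate, fell by 0.72 ± 0.16 and 0.56 ± 0.16. MDH2, the mitochondrial malate dehydrogenase, fell by 0.41 ± 0.07 and 0.40 ± 0.07, and DLAT, of the pyruvate dehydrogenase complex, by 0.38 ± 0.10 and 0.39 ± 0.10. SDHA, a succinate dehydrogenase subunit, rose by log2 fold changes of 0.49 ± 0.07 and 0.32 ± 0.07.

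**Figure D5:**
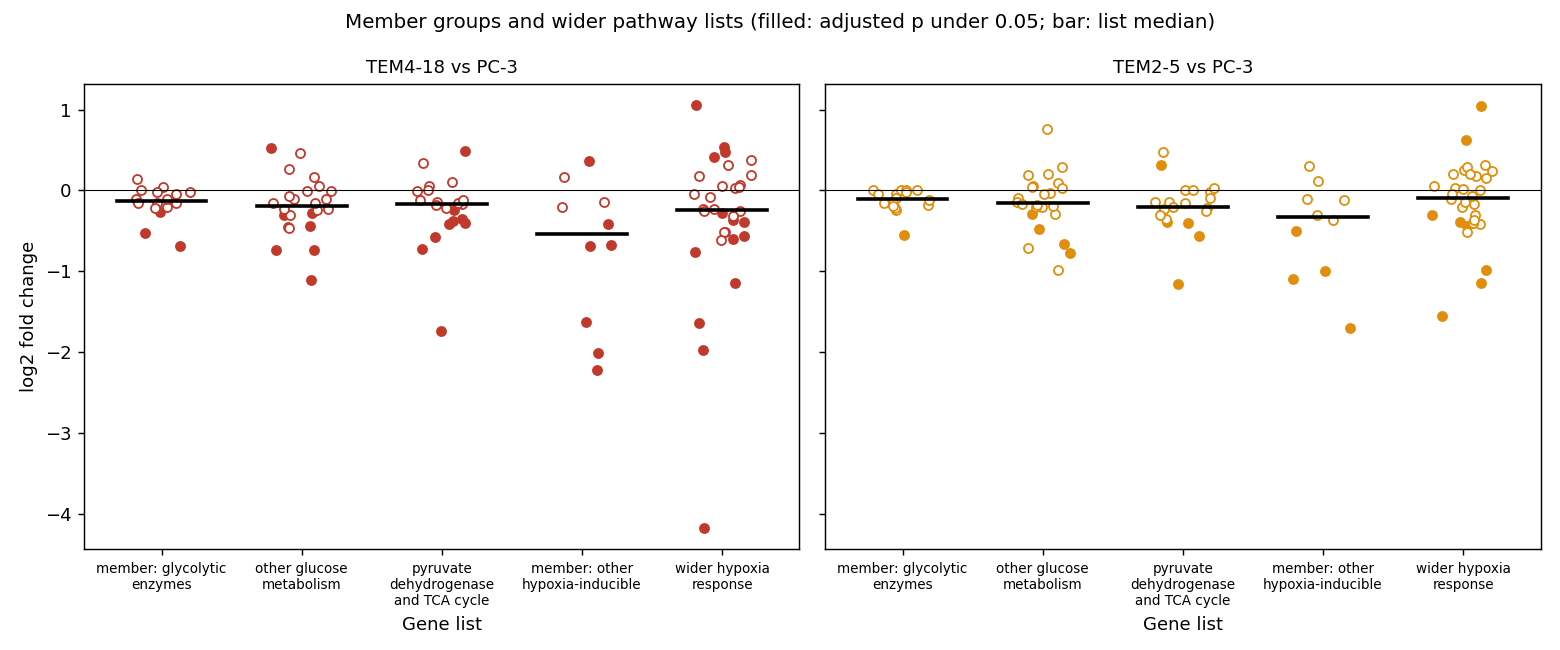
Log2 fold changes of single genes (points) against PC-3 in TEM4-18 (left) and TEM2-5 (right) for the 16 glycolytic enzymes, the 10 other hypoxia-inducible members and 3 lists of other pathway genes; filled points passed the threshold and bars are list medians. The enzymes are the most tightly grouped, from -0.69 to 0.14 in TEM4-18, and the wider hypoxia list the most spread, from a fitted -4.18 for STC2 to 1.06.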

How the data were processed

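Transcript levels were measured on 6 Affymetrix arrays, 2 per line, with 54675 probe sets. The authors deposited MAS5 signal values, a linear intensity per probe set, per the submitters' processing notes; the trimmed mean of each array was 1500.17 to 1500.18, so every array had been scaled to one level, and a shift shared by all genes cannot be seen. Detection calls were not used. Gene names came from GEO's platform annotation: 41097 probe sets had a single symbol, 1801 several and 11777 none.

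Signals were analysed as log2(signal + 51.8), where 51.8 is the 20th percentile of all values. The 32768 probe sets with a mean over the 6 arrays above 174, the 40th percentile of probe set means, were tested with limma 3.58.1 in R 4.3.3 (3 line means, 3 residual degrees of freedom, moderated variances with a mean trend, p-values adjusted by Benjamini-Hochberg across every probe set tested, threshold 0.05, two-sided). All 6 arrays entered each of 3 comparisons. A gene was represented by its brightest tested probe set, which gave 13621 genes. The method was checked on simulated data. Where both arrays of a line lay below the filter threshold, a fold was also given as a bound, with the threshold in place of the signal; this was chosen after seeing the data. The number of arrays, 2 per line, limits the precision; the residual SD had a median of 0.17 (log2), and the correlation between the arrays of a line was 0.976 to 0.980.

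Values on every array are given for members called with a log2 fold change of 1 or more in size, for HIF1A, EPAS1, SLC2A1, SLC2A3, HK1, HK2, LDHA, LDHB, CA9 and GAPDH where measured, and for the other called members. From each of 3 lists of other pathway genes, up to 4 called genes with the largest changes per comparison are named. Members and lists were chosen with earlier results of these data known. Alternatives in pseudocount, filter, scaling, variance model, replicate block, probe set choice and arrays were run. The title of the second TEM2-5 array was followed where its source name gives another replicate number.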

Additional observations from a re-analysis of the deposited data

Results flagged for a closer look

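EPAS1 was flagged because its level differed between the TEM lines by the test of that difference itself: TEM4-18 was lower than TEM2-5 by a log2 difference of -0.59 (limma adjusted p = 0.0192), with both TEM4-18 arrays below both TEM2-5 arrays. PFKFB4 was flagged on its dimmer probe set for the same reason, with a fitted log2 difference of -1.79 between TEM4-18 and TEM2-5 (limma adjusted p = 0.0197) that depends on the pseudocount, since TEM4-18 lay below the filter threshold and only a bound, at least 2.30-fold lower, can be given, whereas its brighter probe set differed by -0.01 (limma adjusted p = 0.995). Each of these calls was lost when 1 of several single arrays was left out, as given with their values above.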

How the results depend on the processing

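The share of all tested genes called was not counted for the alternative settings given here. Their counts of members called therefore have no background beside them and are not results about the members. With the replicate number in the titles as a block, 4 members were called between the TEM lines in place of 1 (DDIT4, NDRG1 and HK2 joined EPAS1). In that fit 6 enzymes were lower in TEM4-18 and 4 in TEM2-5, in place of 3 and 1. The arrays share only a number, and the correlation of same-numbered deviations was 0.06, 0.08 and 0.10 in the 3 comparisons. Without the variance trend, the members called were 8 in TEM4-18, 5 in TEM2-5 and 0 between the TEM lines. With each array centred on its median, 0 were called between the TEM lines. The enzyme medians were then -0.05 in TEM4-18 and 0.05 between the TEM lines, beside 0.040 and 0.050 over all tested genes. After quantile normalization the enzyme medians were -0.03 in TEM4-18 and -0.03 in TEM2-5, beside -0.019 and -0.018 over all tested genes. With no filter, which adds faint genes, the medians were -0.67 for other hypoxia-inducible genes in TEM4-18 and -0.31 between the TEM lines, and -0.81 for HIF subunits and sensors in TEM2-5. With probe sets of a gene averaged, 2 members were called between the TEM lines, the TEM4-18 medians were -0.42 for transport and regulation and -0.81 for HIF subunits and sensors, and the enzyme median in TEM2-5 was -0.05. Leaving out each array in turn gave 10 to 14 members called in TEM4-18, 6 to 8 in TEM2-5 and 0 to 1 between the TEM lines. Under the same omissions the TEM4-18 medians ran from -0.58 to -0.44 for other hypoxia-inducible genes and from -0.81 to -0.54 for HIF subunits and sensors, and the TEM2-5 enzyme median from -0.18 to -0.03. Between the TEM lines the medians ran from -0.33 to -0.05 for HIF subunits and sensors and from -0.09 to 0.05 for enzymes. Under every alternative run, 8 of the 13 calls in TEM4-18 and 5 of the 8 in TEM2-5 held; HK2, ALDOA, BNIP3, ANKRD37 and BHLHE40 lost the first in at least 1 setting, and DDIT4, BNIP3 and EGLN1 the second. Other causes of these shifts were not tested.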
